A study of Mus musculus with 167 samples.

Results

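The comparison described here set the microRNA profile of the liver in 8 mice heterozygous for the *Htt* allele called Q80 against that of 16 control livers, 8 from mice heterozygous for the Q20 allele and 8 from wild-type (WT) mice, all at 2 months of age. The livers were chosen by their labelled genotype and age alone, and the 24 are part of 167 livers in the series. Every one of the 1626 microRNA precursors in the count table was considered, and 316 passed the low-count filter and were tested. *Htt* encodes huntingtin, the protein mutated in Huntington's disease. An engineered allele carries a human exon with a CAG repeat in the mouse gene, and the number after the Q is the nominal length of that repeat. The comparison asks whether a repeat of intermediate length already alters liver microRNAs in young adult mice.

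All 24 mice were labelled C57BL/6, and both heterozygous groups also carry 1 wild-type *Htt* allele. The Q80 mice were 3 labelled females and 5 labelled males and were housed with Q80 mice. The Q20 and WT groups each held 4 females and 4 males, were housed with mice of the Q20 line, and the WT mice were littermates of Q20, not of Q80. Per the study's methods, each line was kept by crossing heterozygous males to C57BL/6J females, no litter gave more than 1 animal per sex and genotype, and the Q80 and Q20 alleles bear different allele designations. Repeat length, line and cage therefore cannot be told apart in the comparison of Q80 with controls. The whole liver was used, so that fewer cells of a type and less RNA per cell cannot be told apart either. Each liver was 1 library, the sum of its counts was 2.28 to 4.35 M in Q80 and 1.69 to 4.62 M in the controls, and the mean totals differed by -0.0547 M (exact permutation test, two-sided p = 0.842, n = 8 and 16). The libraries were spread over 3 sequencing lanes. L3 held 3 Q80 and 3 control livers, L4 3 and 10, and L5 2 and 3, the last 3 controls being Q20 livers without any WT.

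MicroRNAs are short RNAs cut from hairpin precursors that guide repression of messenger RNAs. Target choice rests mainly on the seed, the bases near the 5′ end that pair with the messenger. Hepatocytes are dominated by a few microRNAs such as miR-122 and miR-192, while miR-146 is known from immune signalling, the miR-200 and miR-183 families from epithelia, and miR-143, miR-145 and miR-133 from smooth or striated muscle. Counts were made per precursor, so the 2 arms of a hairpin were not separated.

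The mature sequences below belong to the precursors on which the results turn, so that paralogs can be compared by eye. They are the RefSeq entries on GRCm38.p6, matched by gene symbol, written 5′ to 3′ with the seed (bases 2 to 8) in capitals.
mmu-miR-146a-5p: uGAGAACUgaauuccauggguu
mmu-miR-146b-5p: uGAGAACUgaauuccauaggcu
mmu-miR-182-5p: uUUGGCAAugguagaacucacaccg
mmu-miR-183-5p: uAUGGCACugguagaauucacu
mmu-miR-96-5p: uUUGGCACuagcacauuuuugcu
mmu-miR-10a-5p: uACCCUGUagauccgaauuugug
mmu-miR-10b-5p: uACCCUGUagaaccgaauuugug
mmu-let-7i-5p: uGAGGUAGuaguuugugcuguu
mmu-let-7c-5p: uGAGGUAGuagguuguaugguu
mmu-miR-34a-5p: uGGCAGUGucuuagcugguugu
mmu-miR-31-5p: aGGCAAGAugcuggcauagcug
The 2 miR-146 sequences share their seed and differ at G18A and U21C, counted from 1 at the 5′ end with miR-146a first. The miR-10 pair also shares its seed and differs by the single substitution U12A, with miR-10a first. The let-7 pair printed here has 1 seed, whereas miR-182, miR-183 and miR-96, which come from 1 genomic cluster, have 3 different seeds.

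No precursor of the 316 tested differed between Q80 and controls at an adjusted p-value under 0.05 by edgeR's quasi-likelihood test (0 called, a share of 0%), and the smallest adjusted p-value was 0.0771. At an unadjusted p-value under 0.05 there were 40 precursors (12.7% of those tested), 23 with a higher level in Q80 (7.28%) and 17 with a lower level (5.38%). DESeq2 on the same livers called 3 precursors, *Mir146* and *Mir146b* higher and *Mir182* lower in Q80, and had 44 at an unadjusted p-value under 0.05. No tested precursor had CPM values, counts scaled to the total of their library, that left the groups without overlap. The estimates were centred near 0, with a median log2 difference of 0.02 and a median SE of 0.16. The 95% interval of the difference lay within a fold of 2 in either direction for 248 precursors (78.5%), and within a fold of 1.5 for 187 (59.2%). The estimate itself was beyond a fold of 1.5 in 29 precursors and beyond a fold of 2 in 7.

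**Figure D1:**
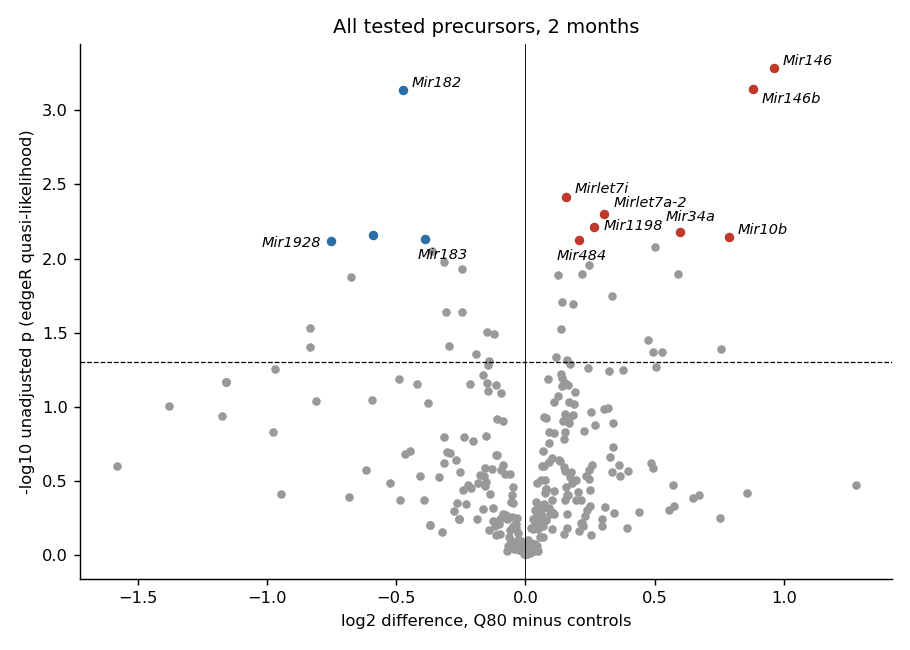
Each of the 316 tested precursors is a point at its log2 difference between Q80 and controls (x axis) and the negative log10 of its unadjusted p-value from edgeR (y axis). The dashed line is an unadjusted p-value of 0.05, the 12 smallest p-values are coloured (red higher, blue lower in Q80), all but 1 of these with its symbol, and *Mir146*, *Mir146b* and *Mir182* stand apart at the top with adjusted p-values of 0.0771.

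Features of single libraries bear on these values and are given before the precursors. The library of Q80 F2 lay farthest from the 24-liver median, with a mean absolute log2 deviation of 0.679 over the tested precursors against 0.295 to 0.463 in the other 23, and it had the lowest total of the Q80 group. Without it the number of precursors at an unadjusted p-value under 0.05 was 20 in place of 40. The library of Q80 M1 is labelled male, but its name carries the code B0021 shared by the 3 Q80 females, and the other 4 males carry B0017. Among the 16 controls 62 precursors (19.6% of 316) differed by sex at an adjusted p-value under 0.05. Of these 62, M1 was nearer the male control mean at 8, where the 3 Q80 females were so at 2 to 20 and the other Q80 males at 45 to 47. *Mir1948* was at 79.2 CPM in M1, against 74.0 to 83.1 CPM in the labelled Q80 females and 459 to 589 CPM in the other Q80 males. The sex-differing *Mir592* was at 1.38 CPM in M1 and at 5.27 to 30.2 CPM in the other Q80 males. With sex taken from the code, 0 precursors were called, 34 had an unadjusted p-value under 0.05, and the smallest adjusted p-value was 0.172.

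The library of Q80 M2, with the control libraries WT F3 and Q20 F1, was high in epithelial and muscle precursors. The summed CPM of *Mir200a*, *Mir200b*, *Mir200c*, *Mir141* and *Mir429* was 1887 in Q80 M2, 1754 in WT F3 and 893 in Q20 F1, and 268 to 620 in the other 21 livers. *Mir133a-1*, a muscle microRNA, was at 104, 66.0 and 55.1 CPM in the same 3 livers and at most 18.6 CPM in the rest. *Mir143*, abundant in smooth muscle, was at 40743 CPM in Q80 M2 and 40255 CPM in WT F3, and *Mir375*, known from endocrine and epithelial cells and picked here after its values were seen, was at 94.8 and 126 CPM. The hepatocyte marker *Mir122* was present in every liver at 21563 to 33381 CPM, so that the label of the tissue was met throughout.

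**Figure D2:**
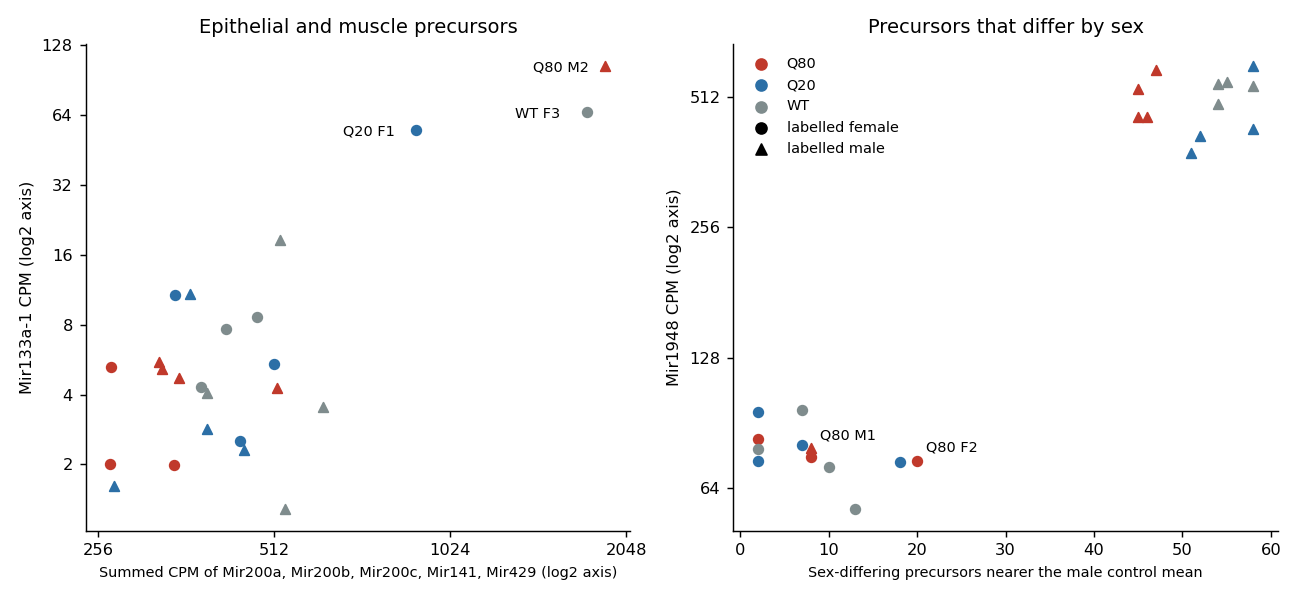
Left, the summed CPM of 5 miR-200 family precursors (x, log2 axis) against *Mir133a-1* CPM (y, log2 axis) in each of the 24 livers, where Q80 M2, WT F3 and Q20 F1 lie at the upper right. Right, the number of the 62 sex-differing precursors at which a liver was nearer the male control mean (x) against *Mir1948* CPM (y, log2 axis), where Q80 M1, labelled male, lies among the females at 8 of 62.

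The miR-146 pair had the largest estimates among the precursors with the smallest p-values. *Mir146* (ENSMUST00000083667, chr11:43374397-43374461 in mm10, minus strand, between genes) yields miR-146a, a microRNA induced by inflammatory signalling that represses its mediators. Its level was 711, 3122 and 659 CPM in Q80 F1 to F3 and 936, 624, 397, 629 and 642 CPM in Q80 M1 to M5. The controls ran from 249 over a median of 547 to 843 CPM. Only Q80 F2 and M1 lay above every control, and 7 of 8 Q80 livers lay above the control median. The log2 difference was 0.96 ± 0.24 (SE; adjusted p = 0.0771 by edgeR). Set against the same controls, and so not independent, Q92, Q111, Q140 and Q175 were at 0.33 ± 0.14, 0.36 ± 0.22, 0.43 ± 0.26 and 0.57 ± 0.20 (SE). Q80 minus the mean of these lines was 0.51 ± 0.23 (SE; adjusted p = 0.221 by edgeR). Q175 also held a high liver, F3 at 2102 CPM.

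*Mir146b* (chr19:46342762-46342870, plus strand, in an intron of *Mfsd13a*) was also highest in Q80 F2. It was at 308 CPM in Q80 F2 and at 39.6 to 79.6 CPM in the other 7 Q80 livers, against 19.3 to 77.5 CPM in the controls with a median of 54.2, and 5 of 8 Q80 livers lay above that median. The log2 difference was 0.88 ± 0.22 (SE; adjusted p = 0.0771). Without Q80 F2 the differences were 0.39 for *Mir146* and 0.35 for *Mir146b*, each with an adjusted p-value of 0.7. Within lanes L3, L4 and L5 the difference of *Mir146* was 0.40, 1.19 and 0.69, and Q80 F2 is in L4. Both precursors had fractional counts in 83.3% of the 24 values, so that reads of the near-identical pair may have been divided between them and their values may not be independent.

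The other leukocyte microRNAs did not share the size of this difference. All 8 tested precursors of the leukocyte list had estimates above 0, and 2 of them, the miR-146 pair, had an unadjusted p-value under 0.05, against 7.28% higher over all tested precursors. The list's median was 0.08. *Mir150*, *Mir155* and *Mir223*, which mark lymphoid and myeloid cells, had log2 differences of 0.0049, 0.08 and 0.08. *Mir142b*, whose mature sequence lies on the minus strand, was at 0.07, and the marker set in the design was *Mir142*. The summed level of these and *Mir142b* was 2462 to 3064 CPM in Q80 and 1823 to 3467 CPM in the controls. *Mir142b* made up most of it, at 1919 to 2372 CPM in Q80, 1494 to 2809 in WT and 1621 to 2365 in Q20.

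*Mir182* (chr6:30165918-30165992, minus strand, between genes) had the smallest p-value among precursors with a lower level in Q80. It belongs to the miR-183 cluster of sensory organs and epithelia. Its level in Q80 F1 to F3 was 842, 980 and 1096 CPM, and in M1 to M5 895, 1759, 1298, 1209 and 1134 CPM. The controls ran from 1012 over a median of 1638 to 2319 CPM. All Q80 livers but M2 lay below the control median, and 3 of them below every control. A lower level was not particular to Q80. The 2-month medians were 1115 CPM in Q80, 1290 in Q111, 1209 in Q140 and 1226 in Q175, and 1664 in Q92. The log2 difference was -0.48 ± 0.12 (SE; adjusted p = 0.0771), and within lanes L3, L4 and L5 it was -0.46, -0.41 and -0.81.

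*Mir183* (chr6:30169668-30169737, minus strand) lies in the same cluster. It was at 51.3 to 104 CPM in Q80 with a median of 56.4, and at 59.5 to 105 CPM in the controls with a median of 85.9. The log2 difference was -0.39 ± 0.13 (SE; adjusted p = 0.201), again with all Q80 livers but M2 below the control median. The *Mir183* medians of the other longer alleles were 67.3 CPM in Q111, 64.0 in Q140 and 68.4 in Q175, and 90.7 in Q92. *Mir96*, the third member, was low, at 2.79 to 7.02 CPM in Q80 and 2.59 to 8.40 CPM in the controls (-0.21 ± 0.22, SE). Q80 M2 had the highest *Mir182* and *Mir183* of its group and is the liver with high miR-200. Leaving out the highest Q80 liver lowers the Q80 level by itself. Without Q80 M2 *Mir182* was lower in Q80 by 0.57 on the log2 scale (adjusted p = 0.00875) and *Mir183* by 0.50 (adjusted p = 0.0451). Without Q80 M2, WT F3 and Q20 F1 together, *Mir182* was lower (log2 difference -0.55, adjusted p = 0.0452), and *Mir183* had a difference of -0.48 (adjusted p = 0.119). *Mir182* was also higher in males than in females among the controls (log2 difference 0.45, adjusted p = 0.0129). The fits above that left out Q80 M2 kept Q80 M1 as male. With sex from the name code and all livers kept, the difference of *Mir182* was -0.44 (adjusted p = 0.172). Without Q80 M1 it was -0.45 (adjusted p = 0.155). For *Mir183* the same fits gave -0.37 (adjusted p = 0.32) and -0.37 (adjusted p = 0.324). Leaving out Q80 M2 with sex from the name code was not tested. Against Q20 alone and WT alone the difference of *Mir182* was -0.57 (adjusted p = 0.173) and -0.38 (adjusted p = 0.563).

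The values of the whole epithelial list depended on the same livers. Of its 10 tested precursors 7 had estimates below 0, with a median of -0.20, and 2 had an unadjusted p-value under 0.05, both lower, against 5.38% lower over all tested precursors. Without Q80 M2 alone all 10 were below 0, 5 of them at an unadjusted p-value under 0.05 against 7.59% of all, and the median was -0.44. Q80 M2 was picked by its miR-200 precursors, which are members of this list. Their shift downward without it was fixed in advance, so this count is no test of the list. With the 2 high control livers left out as well, 7 were below 0, and the same 5 (*Mir182*, *Mir183*, *Mir200a*, *Mir200b* and *Mir429*) were at that threshold against 7.91% of all, with a median of -0.27. These control livers were also picked by their miR-200 precursors, so this count is no test of the list either. The differences of *Mir200a*, *Mir200b* and *Mir429*, which come from 1 cluster on chromosome 4, were then -0.36, -0.33 and -0.46, and those of *Mir200c* and *Mir141*, from a cluster on chromosome 6, 0.11 and 0.03. The adjusted p-values of these 5 were 0.217 to 0.944. The summed level of the list was 2271 to 5136 CPM in Q80 and 2866 to 4724 CPM in the controls. The part of the high epithelial and muscle precursors of these 3 livers in the result was not tested.

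**Figure D3:**
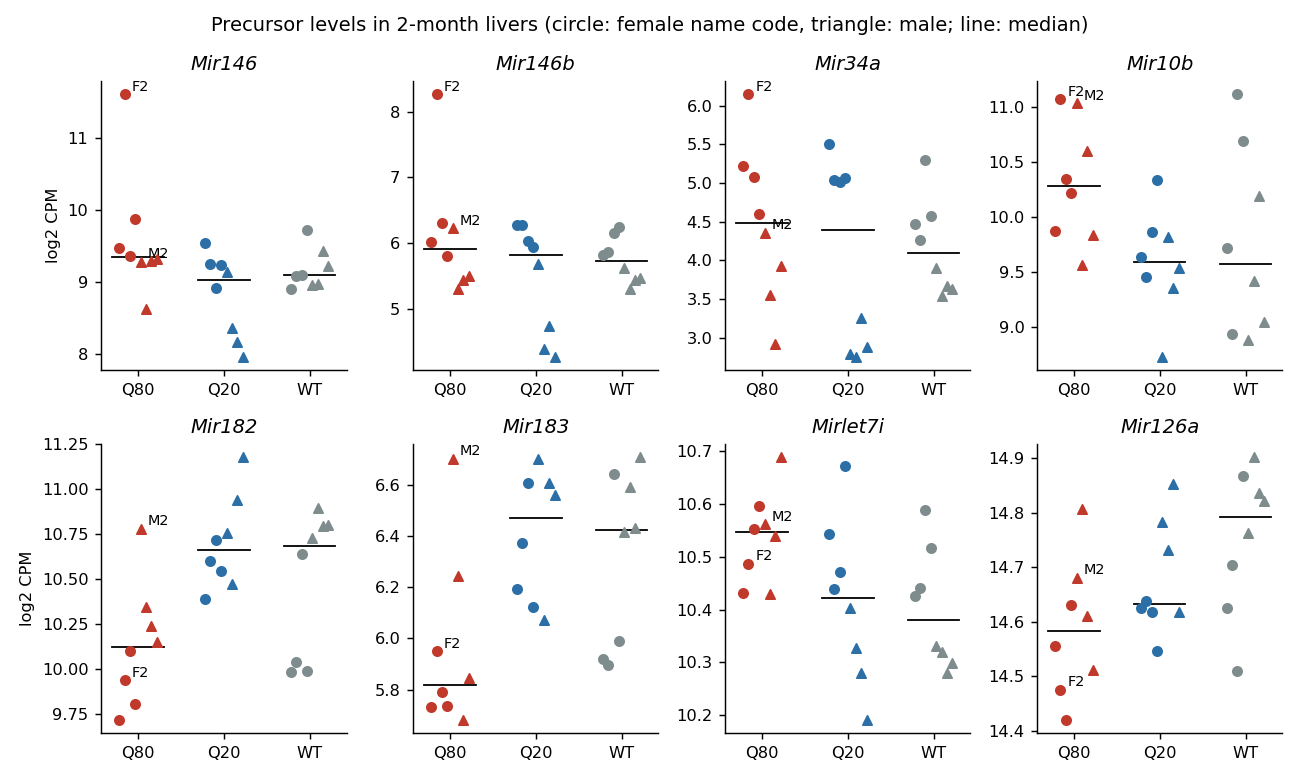
The log2 CPM of 8 precursors in each 2-month liver of the Q80 (red), Q20 (blue) and WT (grey) groups, with a line at the group median, circles for livers with a female name code and triangles for a male one. Q80 F2 stands alone at the top for *Mir146* and *Mir146b*, and Q80 M2 is the highest Q80 liver for *Mir182* and *Mir183*, where 7 of 8 Q80 livers lie below the control median.

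The let-7 family, which restrains growth and is expressed in most adult tissues, lay on the upper side, with estimates from 0.02 to 0.31. All 10 tested members of the let-7 and miR-98 list had estimates above 0, 6 at an unadjusted p-value under 0.05 against 7.28% of all tested precursors, and the median was 0.13 against 0.02 over all. *Mirlet7i* (chr10:122985640-122985724, minus strand) was at 1379 to 1652 CPM in Q80 and 1169 to 1632 CPM in the controls with a median of 1365. All 8 Q80 livers lay above that median, and the log2 difference was 0.16 ± 0.05 (SE; adjusted p = 0.201). *Mirlet7a-2* and *Mirlet7c-1* had differences of 0.31 ± 0.10 and 0.25 ± 0.09 (SE; adjusted p = 0.201 each). Q80 F2 was the highest Q80 liver for *Mirlet7a-2*, at 870 CPM. Without F2 all 10 were above 0, with 1 at an unadjusted p-value under 0.05 against 2.22% of all, and a median of 0.07. Without M1 9 of 10 were above 0, with 4 at an unadjusted p-value under 0.05 against 5.38% of all, and a median of 0.10. Nearly all these precursors had fractional counts in 95.8% to 100% of values, *Mir98* being the exception, so that reads may have been divided among members and their values may not be independent.

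*Mir34a* (chr4:150068454-150068555, plus strand, in an exon of *Gm37795*), a p53 target with roles in lipid metabolism, differed strongly by sex, with a log2 difference of -1.51 between male and female controls (adjusted p = 5.1e-05). Going by the name code, its level was 24.3 to 71.0 CPM in 4 Q80 females and 19.3 to 45.2 CPM in 8 control females. In males it was 7.56 to 20.5 CPM in 4 Q80 livers and 6.73 to 14.9 CPM in 8 controls. The groups overlapped in both sexes. The log2 difference was 0.60 ± 0.20 (SE; adjusted p = 0.201) with sex as labelled, 0.45 with sex from the code and 0.29 without Q80 F2.

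Further precursors on the upper side were *Mir1198* (0.27 ± 0.09), *Mir484* (0.21 ± 0.07) and *Mir3074-1* (0.50 ± 0.17, fractional in every value), each given as a log2 difference with its SE and each with an adjusted p of 0.201. On the lower side were *Mir1928* (-0.75 ± 0.26), *Mir1191* (-0.36 ± 0.12), *Mir101a* (-0.31 ± 0.11), *Mir195a* (-0.25 ± 0.09), *Gm26117* (-0.68 ± 0.25) and the unmatched precursor ENSMUST00000175045 (-0.59 ± 0.20), all with an adjusted p of 0.201. *Mir101b* and *Mir497b* had differences of -0.25 ± 0.10 and -0.31 ± 0.13 (SE; adjusted p = 0.28 each). *Mir195a* and *Mir497b* lie beside each other on chromosome 11, and *Mir497b* overlaps *Mir497* on the opposite strand. *Mir195a* was at 127 to 214 CPM in Q80 and 159 to 226 CPM in the controls, with 7 of 8 Q80 livers below the control median of 181. *Mir1928* was at 106 CPM in Q80 F2, 130 in F3 and 141 in M5, and at 299.9 to 524 CPM in the other 5 Q80 livers. The control range was 109 to 767 CPM, so that F2 alone lay outside it.

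The most abundant microRNAs of the liver had small differences, with SEs below the median of 0.16 over all tested precursors. *Mir192*, a microRNA rich in hepatocytes, was at 213109 to 245718 CPM in Q80 and 207838 to 252424 CPM in the controls (log2 difference -0.01 ± 0.05, SE). *Mir22* was at -0.05 ± 0.06, *Mir148a* at 0.06 ± 0.09, *Mir30a* at 0.04 ± 0.05, *Mir21a* at 0.06 ± 0.10, *Mir26a-2* at -0.05 ± 0.05 and *Mir10a* at 0.15 ± 0.10. *Mir126a*, from an endothelial gene, was at -0.12 ± 0.05 (SE; adjusted p = 0.343), with 7 of 8 Q80 livers below the control median. The other tested precursors of the endothelial list went the other way, *Mir221* at 0.07 ± 0.06 and *Mir222* at 0.09 ± 0.06 (SE), and the list's median was 0.07. *Mir122*, the liver-specific microRNA of cholesterol metabolism, was at 0.14 ± 0.07 (SE; adjusted p = 0.364), or 0.03 without Q80 F2, its highest liver. Of 12 tested hepatocyte-rich precursors 1, *Mir101b*, had an unadjusted p-value under 0.05, and the list's median was -0.03.

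Each remaining list had 0, 1 or 2 members with an unadjusted p-value under 0.05, to be read against 12.7% of all tested precursors, 7.28% higher and 5.38% lower. In lists this short a single member can exceed those shares, so a count of 1 is not read as a result about its list. The endothelial list had 1 of 3 on the lower side (*Mir126a*), with the other 2 above 0. In lipid and glucose metabolism 1 of 14 precursors was on the upper side at an unadjusted p-value under 0.05 (*Mir34a*) and 1 on the lower (*Mir27a*, -0.14 ± 0.07, SE). In the erythroid list 1 of 6 was on the lower side, *Mir144* at -0.30 ± 0.13 (SE), with a summed list level of 13241 to 19991 CPM in Q80 and 12368 to 18047 CPM in the controls. The miR-30 list had 1 of 6 (*Mir30b*, lower), and the miR-29 and miR-17-92 lists had 0 of 4 and 0 of 12. The mesenchymal list had 1 of 8 (*Mir10b*, higher) and the neuronal list 1 of 12 (*Mir7-1*, 0.33 ± 0.13, SE). Among the precursors that the study had linked to CAG length in brain, 9 were tested and 1, *Mir484*, had an unadjusted p-value under 0.05. The activity-regulated pair *Mir132* and *Mir212* was at 0.18 ± 0.11 and 0.30 ± 0.18 (SE; adjusted p = 0.455 and 0.43). The list for the imprinted Dlk1-Dio3 cluster had 12 tested precursors, 1 of which, *Mir342*, lies in an intron of *Evl* on the same chromosome and outside the cluster (0.38 ± 0.19, SE). The other 11 had a median of 0.18 with 9 above 0 and 0 at an unadjusted p-value under 0.05.

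The male-biased Fmr1 cluster on the X chromosome had estimates below 0 in all 5 tested precursors, with a median of -0.81 and 1 at an unadjusted p-value under 0.05. That precursor was *Mir743b*, at -0.83 ± 0.38 (SE; adjusted p = 0.364). By name code, its level was 3.51 to 9.95 CPM in 4 Q80 males and 9.07 to 12.9 CPM in 8 control males, and 0.23 to 2.19 CPM in 4 Q80 females and 0.997 to 3.56 CPM in 8 control females. Counts this low, and M1 among the labelled males, limit these values. Without M1 the difference of *Mir743b* was -0.63.

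**Figure D4:**
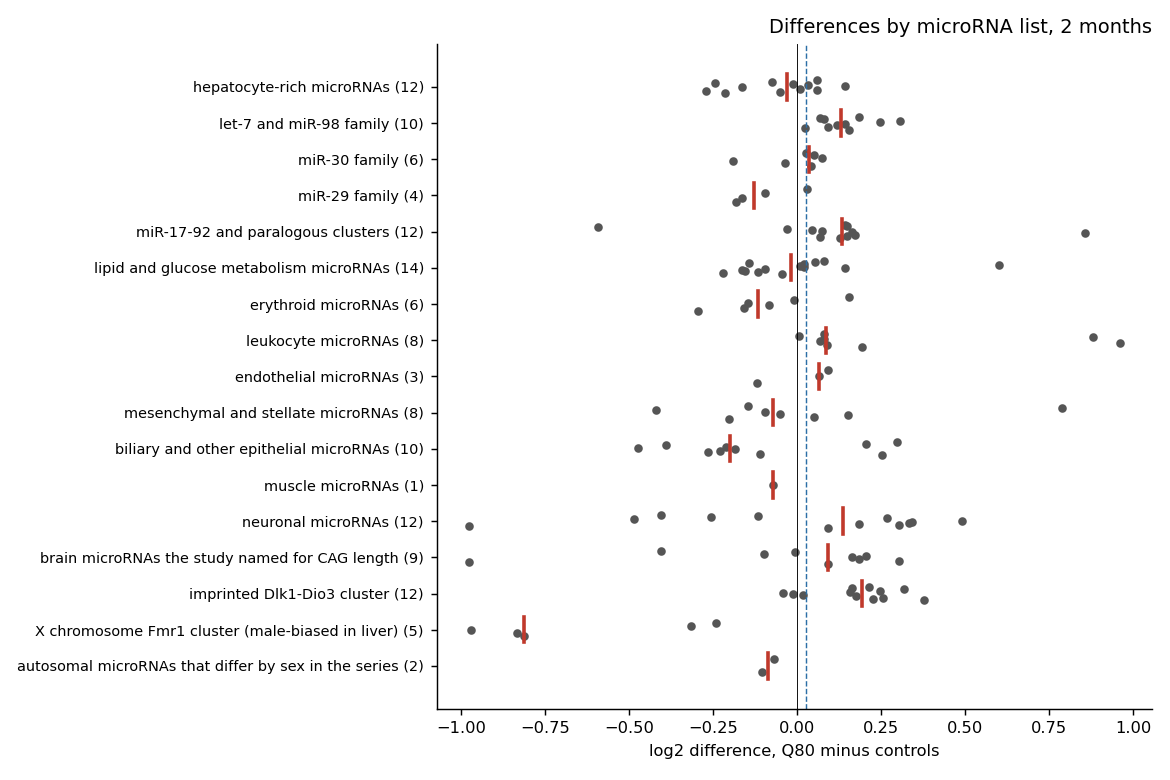
The log2 difference between Q80 and controls of each tested precursor (points), by list with the number tested in brackets (the Dlk1-Dio3 list includes *Mir342*). Red bars are list medians and the dashed line is the median of all 316 precursors at 0.02, and all 10 let-7 and miR-98 members lie above 0 while the epithelial list has a median of -0.20.

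Whether the difference between Q80 and controls depended on sex was asked by the interaction of genotype with labelled sex. No precursor of 316 was called (0%), and 26 (8.23%) had an unadjusted p-value under 0.05 by edgeR and 33 by DESeq2, which called 0. The interaction of *Mir146*, male minus female, was -0.90 ± 0.47 (SE; adjusted p = 0.488), with Q80 F2 among 3 labelled females.

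Q80 was next compared with the mean of the other longer alleles at 2 months, Q92, Q111, Q140 and Q175, with 8 livers each. Of 316 precursors 64 (20.3%) had an unadjusted p-value under 0.05 and 5 (1.58%) were called, all higher in Q80. They were *Mir10b*, *Mir31*, *Mir193b*, *Mir324* and *Mirlet7i*. *Mir10b*, a microRNA of the *HOX* loci, lies in introns of *Hoxd3* and *Hoxd4* (chr2:74726070-74726137, plus strand). Its level was 936, 2144 and 1301 CPM in Q80 F1 to F3 and 1194, 2089, 756, 1552 and 914 CPM in M1 to M5. The median of 1247 CPM compares with medians of 433 in Q92, 925 in Q111, 832 in Q140 and 260 in Q175. *Mir10b* was higher in Q80 by a log2 difference of 1.43 ± 0.24 (SE; adjusted p = 0.000123). Taken 1 line at a time the differences were 1.99 ± 0.33 from Q92 (adjusted p = 9.83e-05) and 2.13 ± 0.33 from Q175 (adjusted p = 1.9e-05), whereas those from Q111 (0.67 ± 0.32, adjusted p = 0.516) and Q140 (0.93 ± 0.39, adjusted p = 0.205) did not pass.

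Against the controls, which had 425 to 2214 CPM of *Mir10b* with a median of 771, the Q80 estimate was 0.79 ± 0.27 (SE; adjusted p = 0.201), and 7 of 8 Q80 livers lay above the control median. The other lines, set against the same controls and so not independent of that value, had log2 differences of -1.29 ± 0.27 in Q92, 0.05 ± 0.28 in Q111, -0.54 ± 0.42 in Q140 and -1.38 ± 0.28 in Q175 (SE). The highest Q80 values of *Mir10b* were in F2 and M2, and the highest control value was in WT F3. Without F2 the difference from the other longer alleles was 1.27 (adjusted p = 0.004), and *Mir10b* was then the only precursor called. Within lanes L3, L4 and L5 the difference from controls was 0.95, 0.78 and 0.13. *Mir10a*, its paralog of far higher count, was at 29962 to 38110 CPM in 7 Q80 livers and 61192 CPM in F2.

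The other 4 called precursors differed by less. *Mir31* was at 469 to 637 CPM in Q80 and 339 to 787 CPM in the other longer alleles, with a log2 difference of 0.25 ± 0.05 (SE; adjusted p = 0.00359). Its median of 534 CPM in Q80 lay below the 564 CPM of Q111. The medians of Q92, Q140 and Q175 were 454, 488 and 459 CPM. *Mirlet7i* had a difference of 0.16 ± 0.04 (SE; adjusted p = 0.0257). *Mir193b* (0.56 ± 0.14) and *Mir324* (0.46 ± 0.12) had adjusted p-values of 0.0187 at levels of 9.15 to 32.4 and 10.3 to 20.5 CPM in Q80. The *Mir193b* median was 12.2 CPM in Q80 and 12.4 CPM in Q92, against 10.8, 9.56 and 10.9 CPM in Q111, Q140 and Q175. Against the controls, *Mir31*, *Mir193b* and *Mir324* had log2 differences of 0.14, 0.32 and 0.11 and were not called. *Mir193b* was highest in Q80 F2, and its difference without that liver was 0.36 (adjusted p = 0.215). Without Q80 F2 the differences of *Mir31*, *Mirlet7i* and *Mir324* were 0.21, 0.15 and 0.44 (adjusted p = 0.104, 0.215 and 0.104). With sex from the name code, *Mir10b* and *Mir31* were called. Differences from the other lines also carry the difference in line and cage.

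The last comparison asked whether the difference between Q80 and controls was the same at 2 and at 10 months, with 7 Q80 and 16 control livers of the later age from other mice. Of 300 precursors tested at both ages, 14 (4.67%) had an unadjusted p-value under 0.05 and 1 (0.333%) was called, again *Mir10b*, by a log2 difference of 2.08 ± 0.47 (SE; adjusted p = 0.024). At 10 months the precursor was at 127 to 1316 CPM in Q80 with a median of 351, and at 431 to 1856 CPM in the controls with a median of 793, so that the estimate was -1.32 ± 0.39 (SE) where at 2 months it was 0.79. The groups overlapped at both ages. The 2 ages came from other mice with other name codes, so age cannot be told apart from differences between those sets of mice. Without Q80 F2 the age difference was 1.99 (adjusted p = 0.093), and without Q80 M4 it was 2.03 (adjusted p = 0.0561). The 10-month control Q20 F1 is labelled female but carries the name code of the labelled Q20 males of that age. With sex from the name code 1 precursor was called (adjusted p = 0.0304 by edgeR). At 6 months, where the controls were 8 Q20 livers and the index type in the library name replaced the lane term, the estimate was 0.11 ± 0.31 (SE). *Mir182* and *Mir146* had estimates of 0.03 and 0.67 at 10 months, and their age differences were -0.51 and 0.26 (adjusted p = 0.842 and 0.943). At 6 months, against the 8 Q20 livers, the estimate of *Mir146* was -0.51 ± 0.27 (SE), opposite in sign to those at 2 and 10 months. The *Mir182* median at 6 months was 1620 CPM in Q80 and 2134 CPM in Q20, lower in Q80 as at 2 months.

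**Figure D5:**
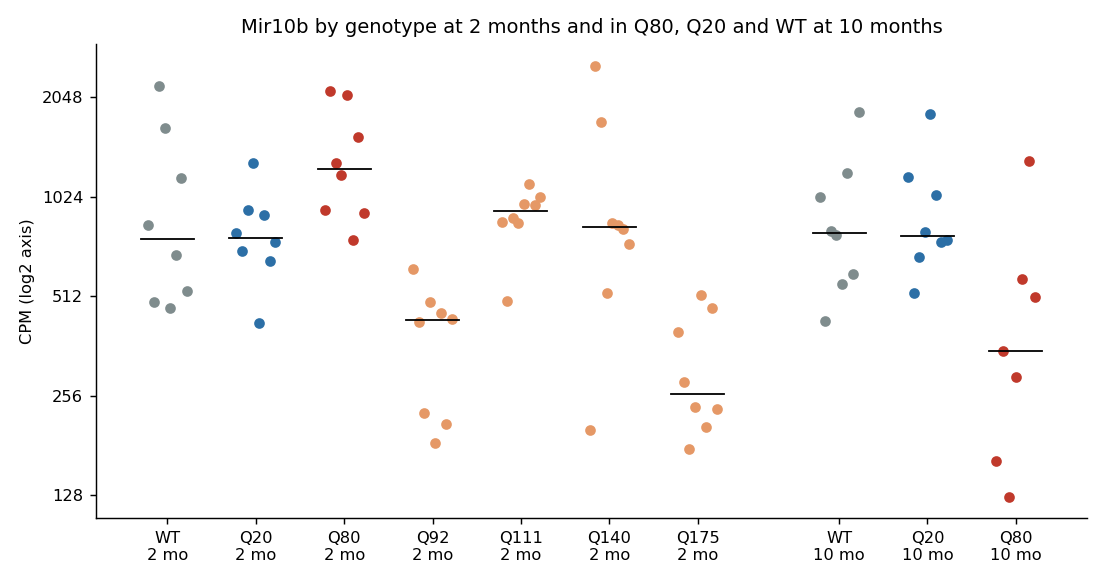
*Mir10b* CPM (log2 axis) in each liver of the 7 genotypes at 2 months and of WT, Q20 and Q80 at 10 months, with a line at the group median. The Q80 median was 1247 CPM at 2 months, above the other 6 groups, and 351 CPM at 10 months, below both control groups.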

How the data were processed

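RNA was extracted from flash-frozen liver, and a small RNA fraction was sequenced as strand-specific single-end reads, per the study's methods. The authors aligned clipped reads to mm10 with STAR and counted them with HTSeq, and the submitters' processing notes name CASAVA 1.8.2. The deposited table holds estimated counts per precursor, and the origin of its fractional values is not given in the sources used here. The FPKM values the authors deposited were not used. Values were rounded to whole numbers before fitting, which the design set for estimated counts. The depth of 1.69 to 4.62 M counts sets the precision, and intervals do not cover amplification before sequencing.

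Counts were fitted with edgeR 4.0.16 in R 4.3.3 (quasi-likelihood F test, TMM factors, Benjamini-Hochberg adjustment over all tested precursors), with labelled sex and lane as covariates. The study's methods use DESeq2 after outlier replacement. DESeq2 1.42.0 without replacement was run as an alternative. Files were read with data.table (version 1.17.8). A precursor was tested with at least 10 counts in at least 7 livers. A call is an adjusted p-value under 0.05. CPM divide by the total count of the library, and a difference is log2, Q80 minus controls. Identifiers were matched to GENCODE M21, 1228 of 1626. No pair of livers within a group was a duplicate (84 pairs, smallest chi-square per degree of freedom 37.3). Named precursors were the 10 smallest p-values in each direction, the 8 most abundant, any called there or with sex from the name code or without Q80 M1, and the 3 smallest p-values of each list. The precursors, lists and tests were chosen with earlier results of these data known. The fit of Q80 against controls was run on simulated data, and the fits of the other comparisons were not.

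Same-numbered livers of different groups did not deviate together (mean correlation 0.0162 over 22 pairs, 5 of them over 0.1), so the numbers were not taken as pairs. Alternatives changed the scaling, filter, tool, controls, sex source, lane term, dispersion, block and livers. Adding the fits without 3 livers, without Q80 F2 and with the name code, and the leave-one-out fits against the other alleles and ages, was decided after seeing the data.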

Additional observations from a re-analysis of the deposited data

Results flagged for a closer look

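In the Q80 group at 2 months, 63 named precursors were examined for a liver far from the other 7 on the log2 CPM scale. A liver was set aside as far when its gap to the nearest other liver, as a share of the group's whole range, was over 0.526. For a single group not picked by its values chance gives about 1 in 20, and 17 precursors met it. Many of the 63 were named by small p-values in these same livers, and all share the same libraries. The rate of 1 in 20 is therefore not the chance level of this set.

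In 13 of the 17 the far liver was Q80 F2. It was the highest for *Mir146* (share 0.584), *Mir146b* (0.69), *Mirlet7a-2* (0.629), *Mir1198* (0.557), *Mir3074-1* (0.671), *Mir7-1* (0.534), *Mir122* (0.623), *Mir10a* (0.698) and *Mir148a* (0.576). It was the lowest for *Mir101a* (0.596), *Mir101b* (0.634), *Mir30b* (0.722) and *Mir29c* (0.745). Q80 M4 was the lowest for *Mir212* (0.559) and *Mir132* (0.531), 2 precursors of 1 locus. Q80 F3 was the lowest for *Gm26117* (0.565). Q80 M2 was the highest for *Mir133a-1* (0.745).

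For *Mir10b*, the difference between Q80 and controls differed between 2 and 10 months, by a log2 difference of 2.08 in the test of the difference itself.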

How the results depend on the processing

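In the comparison of Q80 with controls, 0 calls were made with the other scaling of library sizes, sex from the name code, no lane term, without Q80 M1, a minimum of 100 counts, Q20 or WT alone as controls, robust dispersions, and without Q80 F2 with the name code. DESeq2 made 3 calls, no filter 12, 1 fit of all 7 genotypes 5 (2 with the name code), and leaving out the 3 livers high in epithelial precursors 1. Leaving out 1 liver gave 0 to 2 calls, with 2 without Q80 F1 or M3 (*Mir146* and *Mir146b*) and 2 without M2 (*Mir182* and *Mir183*). With the replicate block 0 were called and 28 had an unadjusted p-value under 0.05. By sex, no filter gave 23. Against the other longer alleles, DESeq2 made 11, no filter 35, the name code 2, no lane term 2, without Q80 M1 3, and without the 3 livers 2. Leaving out 1 Q80 liver gave 1 (without F2) to 8 (without M4). For 2 against 10 months, no filter gave 9, and leaving out 1 Q80 liver 0 (without F2 or M4) to 2 (without M5). The cause was not tested. No filter brings in precursors below 10 counts.

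Estimates near 0 turned. *Mir192* was at 0.00832 without lane, 0.0326 against WT alone, 0.0155 in the fit of 7 genotypes, 0.0178 in it with the name code, and 0.0358 with the replicate block. *Mir133a-1* was at 0.83, 0.27 and 0.20 without lane and in those 2 fits. *Mir592* was at 0.11 with the name code, 0.11 without M1, 0.0839 in the fit of 7 genotypes with the code and 0.0566 without F2 with it, and *Mir1948* was at 0.0322, 0.0256, 0.0695 and 0.0175 in the same order. Against WT alone *Mir222* was at -0.0211, *Mir221* at -0.0625 and *Mir21a* at -0.0518, and *Mir324* with the replicate block at -0.0215. Without F2 and with the name code *Mir10a* was at -0.058, *Mir22* at 0.0126, *Mir30a* at -0.00249 and *Mir148a* at -0.0745. Leaving out 1 liver gave *Mir10a* -0.0592 to 0.19, *Mir22* -0.0787 to 0.00905, *Mir30a* -0.0114 to 0.0645, *Mir148a* -0.0836 to 0.11, *Mir1948* -0.17 to 0.0256, *Mir192* -0.0589 to 0.0215, *Mir592* -0.33 to 0.18 and *Mir133a-1* -1.07 to 0.21. With 8 Q80 livers and totals of 1.69 to 4.62 M counts, the median SE of 0.16 limits what could be detected, most of all for precursors of few counts.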
